A study of Mus musculus with 6 samples.

Results

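The genes described here encode the relay between cell surface receptors and the cyclic nucleotides cAMP and cGMP. They comprise the alpha, beta and gamma subunits of heterotrimeric G proteins, adenylyl cyclases, phosphodiesterases, the subunits of cAMP-dependent protein kinase (PKA) and the regulators of G protein signalling (RGS). Members were picked by a rule on gene symbols, set with earlier results of these data known. The rule takes every gene whose symbol begins with Pde, Adcy, Gna, Gnb, Gng, Rgs or Prkac/Prkar followed by a subtype letter or number. It leaves out Pde10a and Rgs9. The rule found 74 of the 12968 genes in the table, and 72 of them had a mean of at least 10 scaled reads over the libraries and were tested. Gna15 and Pde11a did not pass this filter. The families held 12 G alpha, 4 G beta, 9 G gamma, 8 adenylyl cyclase, 16 phosphodiesterase, 6 PKA and 14 RGS genes. The symbol pattern also took in 5 genes whose products do another job, which were counted apart: Gnb1l, Pde12, Pde4dip, Pde6d and Rgs7bp.

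RNA bound to tagged ribosomes was sequenced from the brains of 6 mice, 1 library per animal. In 3 MCAO mice the middle cerebral artery was occluded for 1 h, a model of ischaemic stroke, and 3 control mice had no MCAO and were otherwise untreated as far as the labels say. The MCAO mice were killed after 3 days, and the middle section of the left hemisphere was taken from each animal in both groups. RiboTag mice carry a conditional epitope tag on a ribosomal protein that Cre recombinase switches on, and the tagged ribosomes are pulled down with the RNA they carry. The sources used here name no Cre driver, strain, age or sex, and they describe no sham operation. The series title speaks of astrocytes, while the tissue label is brain.

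A G protein holds an alpha subunit, which binds GTP when a receptor is activated, and a beta and gamma pair that stay together. The Gs and Golf alpha subunits stimulate adenylyl cyclase, Gi and Go subunits inhibit it, and Gq subunits act on phospholipase C. Cyclases make cAMP, PKA responds to it, phosphodiesterases break down cAMP, cGMP or both, and RGS proteins speed the return of the alpha subunit to its inactive form. In the striatum, a region supplied by the middle cerebral artery, projection neurons couple some dopamine and adenosine receptors through Golf to the Adcy5 cyclase. Gng7 encodes the partner gamma subunit of Golf there.

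Of the 72 tested members, 3 were lower and 1 was higher after MCAO (limma, adjusted p under 0.05). The lower genes were Pde7b, Gng7 and Adcy5, and the higher gene was Rgs10. The share of all 12549 genes tested that was called in the same fit was 3.08%, with 0.789% lower and 2.3% higher. Changes below are log2 changes of MCAO over control on the log2(scaled reads + 1) scale, with the moderated standard error (SE). Scaled reads are the authors' library-scaled read counts; they are not divided by transcript length, so levels of different genes are not compared.

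**Figure D1:**
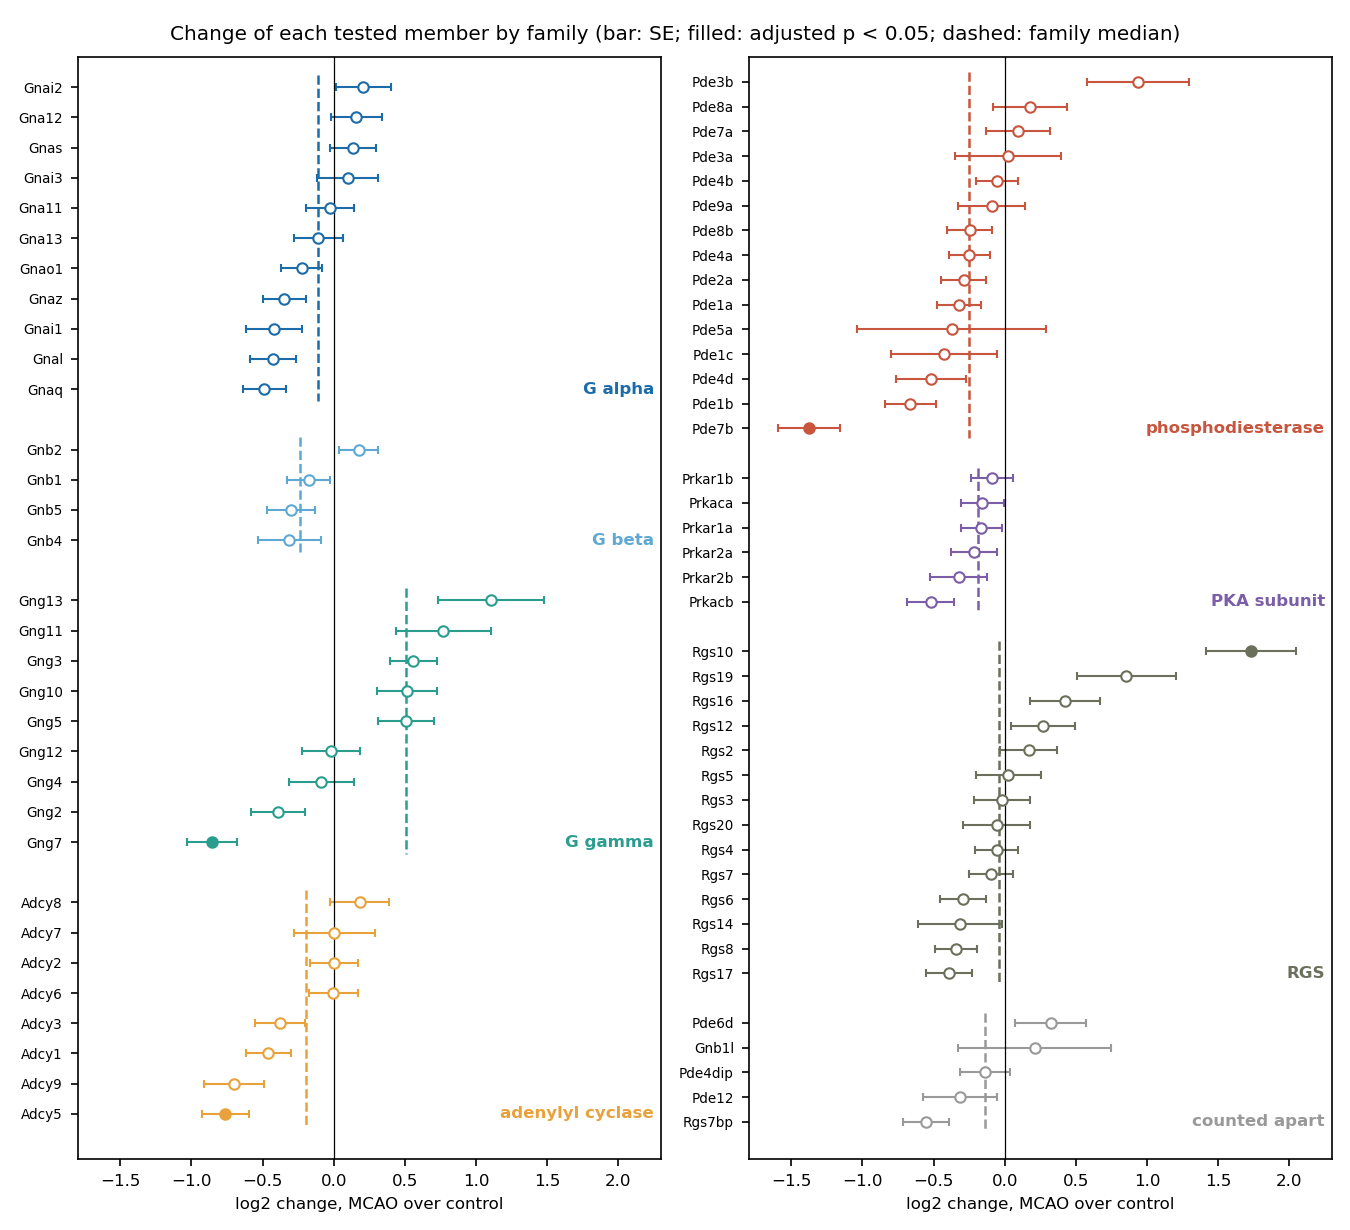
Log2 change of MCAO over control (horizontal axis) for each of the 72 tested members, grouped by family. Points carry SE bars, filled points passed the test and dashed lines mark family medians; Pde7b lies lowest at -1.38, Rgs10 highest at 1.73, and the G gamma genes spread from -0.85 to 1.10.

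The regions before the start sites of the 4 called genes are shown because these are the members that changed. Each is the stretch of 250 bases upstream of a RefSeq start site on build GRCm38.p6, 5′ to 3′ on the gene's own strand. Capitals mark GC boxes (GGGCGG or its reverse complement CCGCCC), which recruit Sp family factors, and the core of the cAMP response element (TGACG or CGTCA).
Pde7b, chr10:20548329-20548578, minus strand: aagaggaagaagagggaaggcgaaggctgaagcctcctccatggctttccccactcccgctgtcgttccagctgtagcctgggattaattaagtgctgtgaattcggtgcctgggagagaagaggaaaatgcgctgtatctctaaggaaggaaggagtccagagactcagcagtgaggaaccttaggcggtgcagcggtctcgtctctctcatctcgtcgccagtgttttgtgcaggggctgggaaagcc
Gng7, chr10:81014926-81015175, minus strand, the upstream of its 2 start sites in the table: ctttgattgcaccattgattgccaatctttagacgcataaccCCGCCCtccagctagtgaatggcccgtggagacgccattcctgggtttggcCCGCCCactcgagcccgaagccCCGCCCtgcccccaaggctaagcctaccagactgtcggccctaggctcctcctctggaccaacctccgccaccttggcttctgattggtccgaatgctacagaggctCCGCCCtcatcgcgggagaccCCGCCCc
Adcy5, chr16:35154614-35154863, plus strand: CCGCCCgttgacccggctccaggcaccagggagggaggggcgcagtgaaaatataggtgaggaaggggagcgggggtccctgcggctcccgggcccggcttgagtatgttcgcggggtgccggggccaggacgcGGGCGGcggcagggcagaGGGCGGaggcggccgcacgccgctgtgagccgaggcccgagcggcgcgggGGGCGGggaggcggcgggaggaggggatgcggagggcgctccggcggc
Rgs10, chr7:128418173-128418422, minus strand: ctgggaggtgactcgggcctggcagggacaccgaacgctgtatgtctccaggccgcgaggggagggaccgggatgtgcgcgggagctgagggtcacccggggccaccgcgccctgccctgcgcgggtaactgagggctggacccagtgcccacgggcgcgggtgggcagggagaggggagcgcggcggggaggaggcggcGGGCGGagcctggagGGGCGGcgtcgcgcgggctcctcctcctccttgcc
In these windows Gng7 had 5 GC boxes, Adcy5 had 4, Rgs10 had 2 and Pde7b had 0. The cAMP response element core had 0 matches in each of the 4 windows. The other Gng7 window, chr10:81001366-81001615, had 1 such core and 0 GC boxes. Over all 32851 start sites in the RefSeq table, 32.7% of windows held a GC box and 17.8% a cAMP response element core, on either strand. For the 61 of 74 members found there, with 111 windows, the shares were 45% and 21.6%. The Pde7b, Adcy5 and Rgs10 windows lie inside the annotated gene spans given below, so other start sites lie further upstream. The matches are letters in a window and were not measured as binding sites.

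Recovered reads numbered 882263 in MCAO 2 to 9519548 in control 1, and the log2 values correlated at 0.932 to 0.966 within groups and 0.889 to 0.943 between them, across genes. Astrocyte markers were in the table for 12 of 12 genes, summing to 26219 to 41820 scaled reads in controls and 30314 to 40812 after MCAO. Their changes were not alike: Gfap was called higher at 3.45, 0 were called lower, the lowest was Slc1a3 at -0.69, and the median was -0.10. General neuron markers, 12 of 12 present, summed to 17323 to 20590 and 16597 to 19138. The precipitates held RNA of both, and enrichment over total RNA was not analysed here. Oligodendrocyte markers were called higher in 4 of 8 cases (median 0.71), endothelial markers in 0 of 4, and blood myeloid markers in 2 of 2 tested of 8 listed.

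Among the alpha subunits 0 of 11 tested genes were called, with a median log2 change of -0.11 against -0.01 for all genes tested. Gnal, which encodes Golf, had 573, 667 and 552 scaled reads in controls 1, 2 and 3 and 545, 420 and 379 in MCAO 1, 2 and 3. Every MCAO library lay below every control, and the change of -0.43 (SE 0.16) did not pass the test (adjusted p = 0.170). Gnas, which encodes the widely expressed Gs subunit, had 3804, 3493 and 3554 in controls and 4035, 4084 and 3789 after MCAO. These groups overlapped, as MCAO 3 was below control 1, and the change was 0.13 (SE 0.16, adjusted p = 0.692).

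The Gi and Go genes were mixed. Gnao1, the Go subunit of neurons, had 2186, 2074 and 2048 scaled reads in controls and 1891, 1782 and 1720 after MCAO (-0.23, SE 0.14, adjusted p = 0.418). Gnai1 was at 468 ± 34.2 in controls and 361 ± 114 after MCAO, as mean ± SD over 3 libraries, which is how paired values with ± are given here (-0.42, SE 0.20, adjusted p = 0.260). Gnai2, which is prominent in immune cells, was at 993 ± 229 and 1140 ± 215 (0.21, SE 0.19). Gnaz, a member of the Gi class, had a change of -0.35 (SE 0.15), and Gnai3 one of 0.10 (SE 0.22). None of these 5 genes was called by limma (adjusted p 0.236 to 0.849).

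In the Gq class, Gnaq (chromosome 19, 16132684 to 16388520) had 581, 502 and 584 scaled reads in controls and 433, 333 and 428 after MCAO. All MCAO values were below the controls, at -0.49 (SE 0.15), and the adjusted p was 0.101. Gna11, its close relative, was at 379 ± 55.0 and 373 ± 68.6. The groups overlapped, and its change of -0.03 turned to 0.01 with quantile normalisation. The G12 class genes Gna12 and Gna13, at 0.16 (SE 0.18) and -0.11 (SE 0.17), also overlapped. Gna15, a Gq class gene of blood cells, was low and not tested, at 3.74, 17.7 and 3.02 scaled reads in controls and 10.6, 12.4 and 10.7 after MCAO.

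None of the 4 beta subunit genes was called, with a median of -0.24. Gnb1 had 2263, 2452 and 2306 scaled reads in controls and 2203, 1891 and 2125 after MCAO, lower in every MCAO library (-0.18, SE 0.15, adjusted p = 0.550). Gnb2 had 1005, 1055 and 943 in controls and 1100.2, 1101.0 and 1190 after MCAO, higher in every one (0.18, SE 0.14, adjusted p = 0.517). Removal of the gene span trend described below put Gnb2 at -0.01. Gnb5, the beta subunit that pairs with RGS proteins of the R7 class, was at -0.30 (SE 0.17), and Gnb4 at -0.31 (SE 0.22).

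The gamma subunit genes held 1 called gene, which was lower, and 5 genes with every MCAO library above the controls. Gng7 (chromosome 10, 80948624 to 81014925) had 538, 580 and 510 scaled reads in controls and 391, 280 and 245 after MCAO. The groups did not overlap, and Gng7 fell by 0.85 on the log2 scale (SE 0.17, adjusted p = 0.0159). In these bulk precipitates fewer cells of a type, less RNA per cell and less of that RNA precipitated cannot be told apart, for this gene and for those below. The call was lost without control 1 (adjusted p = 0.0537), MCAO 2 (0.0536) or MCAO 3 (0.0887), and with no intensity trend (0.143).

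These 5 of 9 genes with higher MCAO libraries compare with 12.4% of all genes tested. Gng3, a gamma subunit of neurons, had 197, 218 and 192 scaled reads in controls and 355, 295 and 253 after MCAO. It had the smallest p of the 5 (0.56, SE 0.16, adjusted p = 0.0815). Gng3 was called in 2 of 18 alternatives, by edgeR on recovered reads (adjusted p = 0.0462) and with library weights (0.0242). Gng13, a gamma subunit known from taste and retinal bipolar cells, had 12.1, 14.2 and 18.1 in controls and 36.5, 40.4 and 23.3 after MCAO (1.10, SE 0.37, adjusted p = 0.125). Gng5 was at 88.9 ± 14.3 and 126 ± 13.4 (0.51, SE 0.19), Gng10 at 70.9 ± 14.5 and 101 ± 10.1 (0.52, SE 0.21) and Gng11 at 19.8 ± 2.80 and 35.0 ± 8.45 (0.77, SE 0.34). None of the 5 was called by limma (adjusted p 0.0815 to 0.229). Gng2 was at 355 ± 13.3 and 278 ± 76.9 (-0.39, SE 0.19), and its groups overlapped through MCAO 1, at 342. Gng4 and Gng12 also overlapped, at -0.09 (SE 0.23) and -0.02 (SE 0.20), and Gng12 turned to 0.02 with quantile normalisation.

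The median of the family was 0.51, and it was 0.33, 0.55 and 0.32 in MCAO 1, 2 and 3 as the median difference from the control mean. With a minimum mean of 50 in place of 10, which left out Gng11 and Gng13, the median was -0.0197. Gng3 overlaps Bscl2 and Gng13 overlaps Chtf18 in the annotation, and the strand setting of the authors' counting is not given, so reads of the partners cannot be told apart. The same limit holds for Gnal, Gnaq, Gnb4, Adcy3, Adcy7, Pde4d, Pde6d and Prkar1b, which also overlap another gene of the table. Bscl2 was at 0.36 (SE 0.17, adjusted p = 0.255).

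Change went with gene span, the distance from a gene's start to its end in the RefSeq annotation. Over 11938 tested genes with a span, the median log2 change was 0.23 in the shortest of 5 equal bins of span, up to 8122 bp, and -0.20 in the longest, from 80413 bp, with a Spearman correlation of -0.36 across genes. Over the 72 tested members the correlation was -0.43, and 55 members had a span at or above the median of all tested genes. Genes share libraries and are not independent replicates, so these values are descriptions. All 5 gamma genes with separate, higher MCAO values lay in the shortest bin, while Gng7 spans 66302 bp. With the trend of span removed from each library, an alternative chosen after seeing the data, the gamma median was 0.26, Gng3 was at 0.26 (adjusted p = 0.484) and Gng7 was still called at -0.75 (0.0253). Other values from this fit are given with the genes and families concerned. Why change went with span was not tested.

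**Figure D2:**
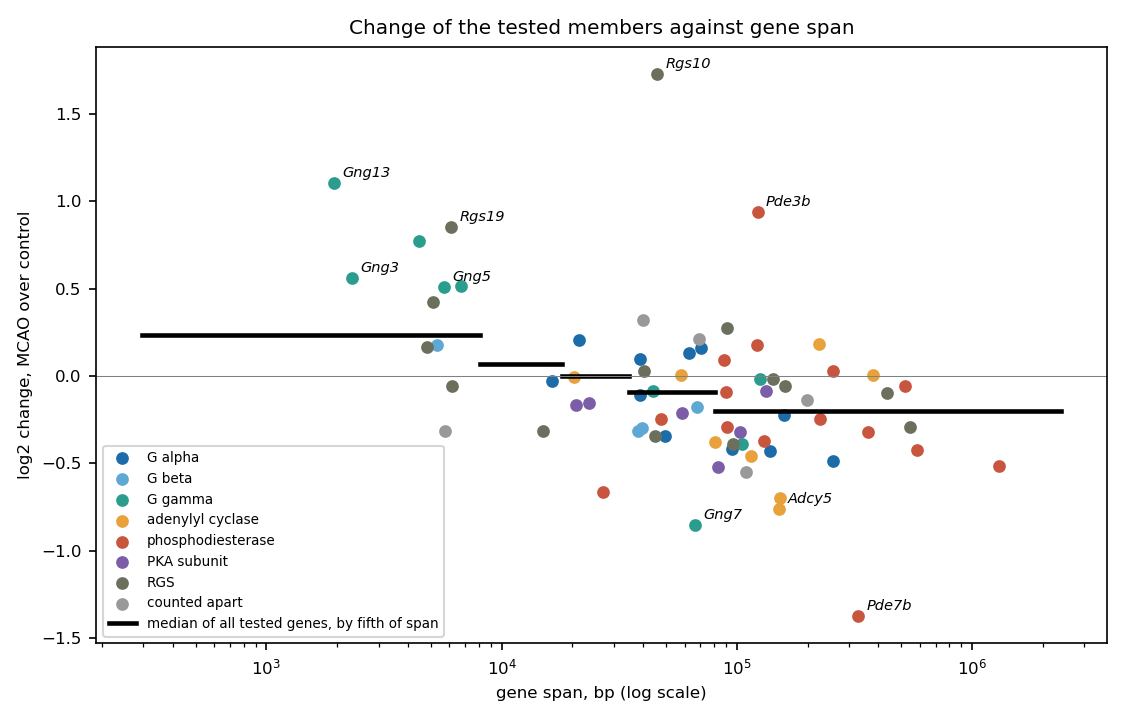
Log2 change of MCAO over control against gene span in bp, on a log axis, for the 72 tested members coloured by family. Black bars are the medians of all tested genes in each of 5 equal bins of span, from 0.23 to -0.20; the short gamma genes sit at 0.51 to 1.10 and Pde7b, Gng7 and Adcy5 lie below the bars.

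Among the cyclases, Adcy5 was lower and the other 7 tested genes were not called, with a family median of -0.19. Adcy5 (chromosome 16, 35154494 to 35305743), the main cyclase of striatal projection neurons, had 716, 683 and 717 scaled reads in controls and 475, 473 and 320 after MCAO. The lowest control was above the highest MCAO library. Adcy5 fell by 0.76 on the log2 scale (SE 0.17, adjusted p = 0.0247). The call was lost without control 1 (0.0862), control 3 (0.0740) or MCAO 3 (0.102), with no intensity trend (0.163) and with the span trend removed (-0.58, 0.0850).

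Adcy1, a cyclase stimulated by calcium and calmodulin, had 1951, 2267 and 2170.0 scaled reads in controls and 1739, 1583 and 1342 after MCAO. Adcy9, a broadly expressed cyclase, had 86.1, 79.8 and 78.5 in controls and 50.01, 49.8 and 49.3 after MCAO. Both were below the controls in every MCAO library, by -0.46 (SE 0.16, adjusted p = 0.128) and -0.70 (SE 0.21, adjusted p = 0.0909). Each was called in only 1 of 18 alternatives, with library weights (adjusted p 0.0496 and 0.0199). Adcy3, known from primary cilia and olfactory neurons, was at 182 ± 32.0 and 139 ± 7.501 (-0.38, SE 0.18), also without overlap. Groups without overlap in the lower direction made up 4 of 8 cyclases, against 12.5% of all genes tested. Adcy8, the other calcium-stimulated cyclase, was at 137 ± 27.8 and 156 ± 33.4. Adcy2, Adcy6 and Adcy7 had mean values of 642, 115 and 35.1 in controls and 651, 115 and 35.0 after MCAO, all with overlap.

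Of 15 tested phosphodiesterase genes, Pde7b was lower and 0 were higher, with a family median of -0.25. These counts leave out Pde10a, which limma called lower (-1.39, adjusted p = 0.000375). Pde7b (chromosome 10, 20397052 to 20725078) encodes a cAMP-specific enzyme of striatal neurons. It had 164, 183 and 119 scaled reads in controls and 69.4, 49.8 and 57.3 after MCAO, without overlap. Pde7b fell by 1.38 on the log2 scale (SE 0.22, adjusted p = 0.00279), and it was called in all 18 alternatives (-1.55 to -1.12, adjusted p 2.12e-05 to 0.0384). Its relative Pde7a, which is found in many tissues, was at 58.2 ± 6.66 and 62.3 ± 8.32 (0.09, SE 0.23).

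The calcium and calmodulin dependent Pde1 genes act on both nucleotides. Pde1b (chromosome 15, 103503034 to 103530056), the striatal form, had 776, 1112 and 748 scaled reads in controls and 664, 473 and 518 after MCAO. The groups did not overlap, and the change of -0.66 (SE 0.18) missed the threshold (adjusted p = 0.0634). Pde1b was called in 3 of 18 alternatives: without MCAO 1 (-0.80, adjusted p = 0.0473), by DESeq2 on recovered reads (0.0191) and with library weights (0.0252). Without the shallowest library of each group its change was -0.38 (adjusted p = 0.158). Pde1a was at 439 ± 43.9 and 352 ± 44.9 (-0.32, SE 0.15), and Pde1c at 27.4 ± 5.41 and 20.6 ± 7.21 (-0.43, SE 0.37). Pde2a, which cGMP stimulates, was at 932 ± 162 and 759 ± 94.6 (-0.29, SE 0.16). Its groups overlapped through control 3, at 810, and MCAO 1, at 855.

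None of the 3 Pde4 genes, which encode cAMP-specific enzymes, was called. Pde4a had 294, 268 and 309 scaled reads in controls and 243, 246 and 242 after MCAO, lower in every MCAO library (-0.25, SE 0.14, adjusted p = 0.367). Pde4d was at 60.5 ± 9.88 and 41.7 ± 3.22 (-0.52, SE 0.24, adjusted p = 0.265). Pde4b was at 303 ± 25.5 and 291 ± 22.1 (-0.06, SE 0.15), with overlap, and turned to 0.25 with the span trend removed. Of the Pde8 genes, Pde8b was at -0.25 (SE 0.16) and Pde8a at 0.18 (SE 0.26). Among the cGMP-specific genes, Pde9a was at 61.9 ± 6.35 and 58.7 ± 12.7. Pde5a had 15.8, 15.97 and 27.2 scaled reads in controls and 38.2, 3.11 and 21.98 after MCAO, where MCAO 2 holds 1 read. Its log2 change of -0.37 (SE 0.66) and its group means, 19.7 and 21.1, differ in direction.

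By substrate, the 7 tested cAMP-specific genes had a median of -0.25, the 2 cGMP-specific genes one of -0.23, and the 6 tested genes for both one of -0.31. The median of the cGMP-specific genes was 0.21 with edgeR and 0.13 with DESeq2, where Pde5a was at 0.41 and 0.29. Pde3b, a cAMP hydrolase that cGMP inhibits, had 18.7, 28.4 and 12.1 scaled reads in controls and 39.4, 37.3 and 33.3 after MCAO. It was higher in every MCAO library (0.94, SE 0.36, adjusted p = 0.177), the only tested phosphodiesterase gene of which this held. Pde3a, its relative in heart and vessels, was at 19.3 ± 2.17 and 19.8 ± 3.87. Pde11a was not tested, at 11.9 ± 5.26 and 5.72 ± 4.16.

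**Figure D3:**
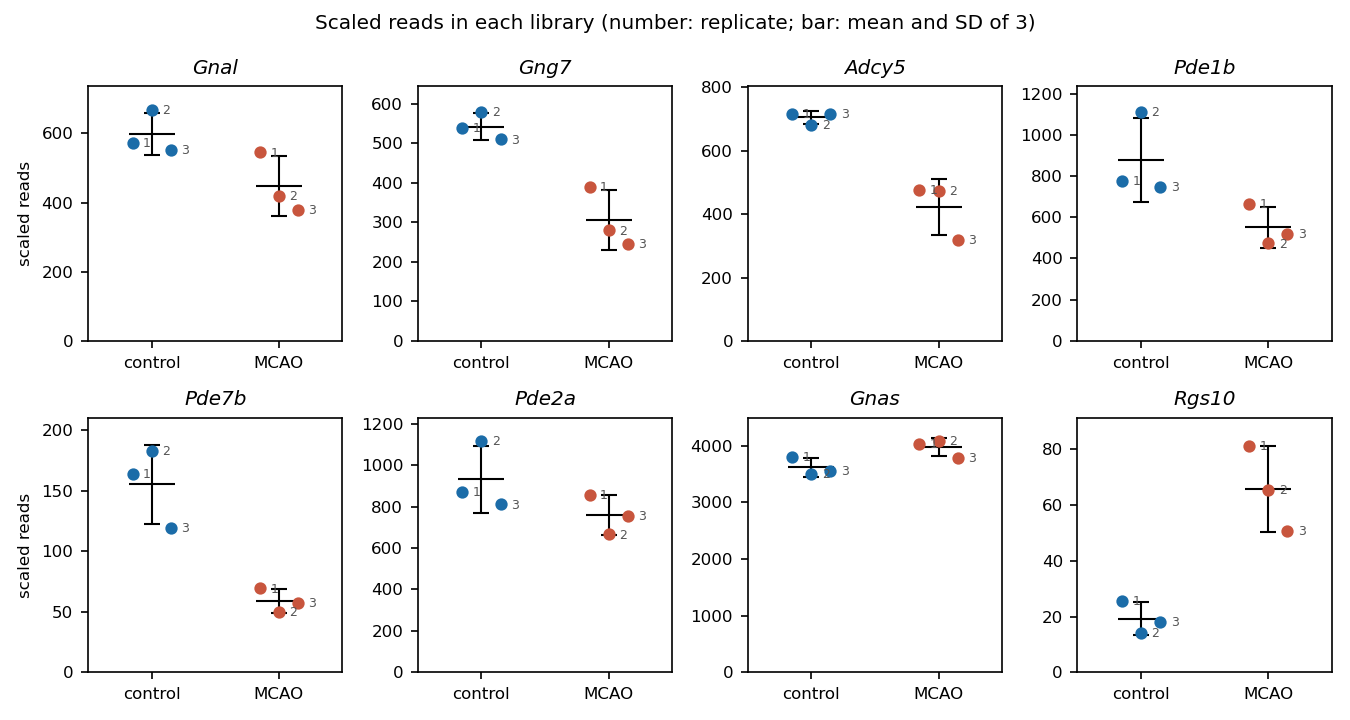
Scaled reads (vertical axis, from 0) of 8 members in each of the 3 control and 3 MCAO libraries, numbered by replicate, with the mean and SD. Gnal, Gng7, Adcy5, Pde1b and Pde7b have every MCAO point below every control, Pde2a and Gnas overlap, and Rgs10 runs from 14.2 to 25.6 in controls and 50.6 to 81.2 after MCAO.

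All 6 PKA subunit genes had negative changes, 0 were called, and the median was -0.19; 51.3% of all genes tested were negative. Prkacb, a catalytic subunit, had 1751, 2123 and 1781 scaled reads in controls and 1524, 1104 and 1332 after MCAO. Its groups did not overlap (-0.52, SE 0.16, adjusted p = 0.101). Prkacb was called in only 1 of 18 alternatives, by DESeq2 on recovered reads (adjusted p = 0.0352). Without the shallowest library of each group its change was -0.31 (adjusted p = 0.203). Prkaca, the other catalytic subunit, was at 753 ± 125 and 671 ± 36.0 (-0.16, SE 0.15). The regulatory subunits Prkar1a and Prkar1b were at -0.16 (SE 0.14) and -0.09 (SE 0.15), and Prkar2a and Prkar2b at -0.21 (SE 0.16) and -0.32 (SE 0.20). With the span trend removed Prkar1b turned to 0.08.

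Of 14 RGS genes, Rgs10 was higher and 0 were lower. The median of -0.04 was 0.02 with edgeR, 0.01 with DESeq2 and 0.11 with the span trend removed, where 9 of 14 genes were positive. These counts leave out Rgs9, which limma called lower (-1.49, adjusted p = 0.000971). Rgs10 (chromosome 7, 128373621 to 128419506) encodes a small RGS protein of the R12 class that is prominent in microglia. It had 25.6, 14.2 and 18.1 scaled reads in controls, from 89, 8 and 12 recovered reads, and 81.2, 65.3 and 50.6 after MCAO, from 138, 21 and 76. The groups did not overlap, and Rgs10 rose by 1.73 (SE 0.32, adjusted p = 0.00814), or 3.40-fold in the means. Without MCAO 1 the adjusted p was 0.0504. Microglia markers were higher in the same libraries, with 9 of 14 called and a median of 1.89. Their summed level was 630 to 841 scaled reads in controls and 2264 to 3093 after MCAO, and their part in the change of Rgs10 was not tested.

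The other RGS genes of the R12 class were Rgs12 (0.27, SE 0.22) and Rgs14 (-0.32, SE 0.29), whose groups overlapped. In the RZ class Rgs19, which acts on Gi subunits, had 26.8, 30.2 and 13.6 scaled reads in controls and 47.7, 40.4 and 36.0 after MCAO, all higher (0.85, SE 0.35, adjusted p = 0.19996). Rgs17 was at 380 ± 55.9 and 289 ± 36.1 (-0.39, SE 0.16, adjusted p = 0.208), overlapping through control 1 and MCAO 1, at 315 and 328. The R4 class held 6 tested genes with a median of 0.00. Rgs4, an R4 gene of cortical and striatal neurons, was at 802 ± 103 and 770 ± 87.1, and Rgs8 had 395, 486 and 391 in controls and 341.8, 342.1 and 314 after MCAO (-0.34, SE 0.15, adjusted p = 0.218). Rgs2, Rgs3, Rgs5 and Rgs16 overlapped between groups, at -0.02 to 0.42. The R7 genes Rgs6 and Rgs7 were at -0.29 (SE 0.16) and -0.10 (SE 0.16), and turned to 0.012 and 0.19 with the span trend removed. Rgs7bp, which holds R7 proteins at the membrane and was counted apart, had 532, 653 and 515 in controls and 455, 373 and 334 after MCAO, all lower (-0.55, SE 0.16, adjusted p = 0.0805).

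Across families, 21 of the 72 tested members were lower in every MCAO library and 9 were higher in every one, or 29.2% and 12.5%. Over all genes tested these shares were 12.5% and 12.4%, or 24.9% together. By an unadjusted p under 0.05, 14 members were lower and 8 higher, where 9.16% and 10.1% of all genes tested were, or 19.3% together. Cyclases contributed 4 of the 21, phosphodiesterases 5, alpha subunits 4, beta subunits 2, PKA and RGS genes 2 each, and the gamma and the apart genes 1 each. Of the 9, 5 were gamma subunits, 2 were RGS genes, 1 was Gnb2 and 1 was Pde3b. The median change of the 72 was -0.10, and -0.03 with the span trend removed, which left 40 negative in place of 47. edgeR on recovered reads called 2 members higher and 3 lower, and DESeq2 called 1 higher and 5 lower, in fits that called 529 and 574 genes, or 4.18% and 4.43% of those tested. In these fits 3.07% and 3.12% of genes were called higher and 1.11% and 1.3% lower. Weighting the libraries by their quality called 2 members higher and 8 lower, where 7.98% of genes were called, 4.51% higher and 3.47% lower. Leaving out 1 library gave 0 or 1 higher and 1 to 4 lower members; only Pde7b was lower without control 1 or without MCAO 3.

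Ratios between related members were taken within each library for 12 pairs. The test was an exact permutation of the libraries (two-sided), and with 3 against 3 its smallest p is 0.1. Only the change of a ratio is read, since its level also reflects transcript length. The groups stood apart in 5 pairs, each with an exact permutation p of 0.1 and an adjusted p of 0.24 over the 12 pairs, so none could pass. The ratio of Gng5 to Gng7 was 0.193, 0.130 and 0.176 in controls and 0.286, 0.491 and 0.535 after MCAO. That of Gnal to Gnas was 0.151, 0.191 and 0.156 in controls and 0.135, 0.103 and 0.1003 after MCAO. That of Prkaca to Prkacb went from a range of 0.381 to 0.423 to one of 0.457 to 0.623. The ratios of Rgs10 to Rgs4, which are of different RGS classes, and of Adcy7 to Adcy5 were also higher in every MCAO library, by 1.79 and 0.77 on the log2 scale. The ratios that hold Gng7, Rgs10 or Adcy5 repeat the values of these called genes and are not separate evidence. Those that hold Gnal or Prkacb likewise repeat genes already lower in every MCAO library, while the groups of Gnas and Prkaca overlapped. The other 7 pairs overlapped, with exact p of 0.3 to 0.7; Gnb4 to Gnb1 and Prkar1a to Prkar1b were among them.

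**Figure D4:**
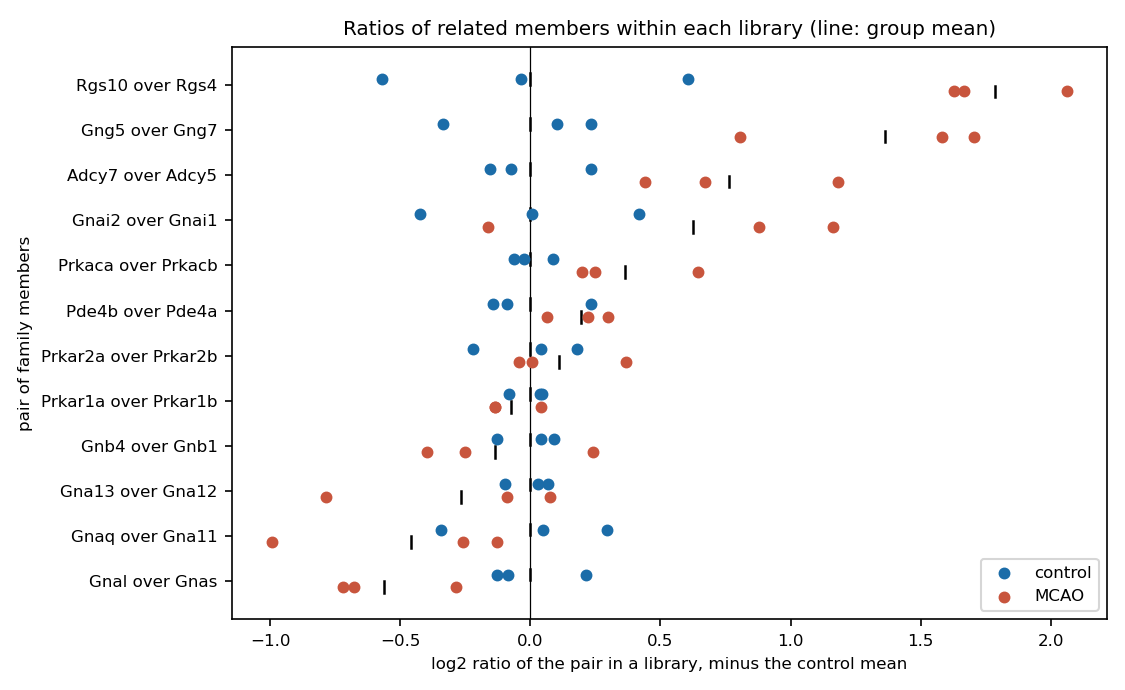
Log2 ratio of 2 related members within each library, minus the control mean of that pair (horizontal axis), for 12 pairs. Points are libraries and black lines group means; Rgs10 over Rgs4, Gng5 over Gng7, Adcy7 over Adcy5, Prkaca over Prkacb and Gnal over Gnas have no overlap between the groups.

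Of the members known from striatal projection neurons, 6 were listed with earlier results of these data known: Gnal, Gng7, Adcy5, Pde1b, Pde2a and Pde7b. Of these, 3 were called lower, where 0.789% of all genes tested were. The changes of the 6 were negative with a median of -0.71. They were also negative with quantile normalisation, edgeR, DESeq2 and the span trend removed, with medians of -0.66, -0.69, -0.70 and -0.61. Rgs4, which striatal neurons share with the cortex, was not on the list and was at -0.06. Their median difference from the control mean was -0.43, -0.72 and -0.94 in MCAO 1, 2 and 3. Of 12 defining markers of these neurons 7 were called lower and 0 higher, with a median of -0.79. Penk, Tac1, Foxp1 and Arpp21, at -0.34, -0.19, -0.38 and -0.31, and Pdyn, at 0.18, were not called, and their groups overlapped. The summed level of the 12 was 3402 to 3566 scaled reads in controls and 1819 to 2693 after MCAO. For the median of the 6 members and for this sum, MCAO 1 was the least changed library and MCAO 3 the most changed. The order did not hold for each gene, as Pde1b, Pde2a and Pde7b were lowest in MCAO 2. Nor was it particular to striatal markers, as general neuron markers summed to 19138, 16808 and 16597 in MCAO 1, 2 and 3. General neuron markers were called in 0 of 12 cases, with a median of -0.05. The part of the striatal neuron RNA in the changes of the 6 members was not tested. Pde10a and Rgs9, which the rule leaves out, were at -1.39 and -1.49, and both were called lower.

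Of 8 listed genes known from myeloid cells 4 were tested, as Gna15 was too low and Rgs1, Rgs18 and Gngt2 were not in the table. Rgs10 was called, Rgs19 and Gnai2 were positive, and Adcy7, at 0.00, turned negative with quantile normalisation, edgeR and DESeq2. The vessel genes Rgs5, Gng11 and Pde5a were not called.

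Other genes of the pathway were taken from a written list of 96 symbols, of which 82 were tested. Among these, 7 were lower and 0 higher, where 0.789% and 2.3% of all genes tested were. Of 29 tested receptor genes 5 were lower, with a median of -0.30. They included the dopamine receptor genes Drd1 (-1.48, SE 0.23) and Drd2 (-1.99, SE 0.30), the striatal adenosine receptor gene Adora2a (-1.79, SE 0.27) and the adrenergic receptor gene Adra2c (-1.17, SE 0.28). Drd2, for example, had 65.3, 74.5 and 60.4 scaled reads in controls and 18.2, 18.7 and 11.99 after MCAO. Of 22 tested PKA anchors, inhibitors and targets 2 were lower: Ppp1r1b, the PKA target DARPP-32 of striatal neurons (-0.80, SE 0.15), and Akap11, a PKA anchor (-0.68, SE 0.14). Among 10 receptor kinases, arrestins and exchange factors, 14 effectors and 7 genes of the cGMP branch 0 were called, with medians of -0.04, -0.18 and -0.44. By an unadjusted p under 0.05, 2, 5 and 3 of these passed, and 0, 2 and 0 of them were higher.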

How the data were processed

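The authors deposited a normalised signal for 12968 genes in each of 6 libraries. The submitters' processing notes list mm10 as the build and, among the tools, DESeq2, HISAT2, CASAVA 1.8, R 3.3.1 and Partek 6.6, without saying what each did. The counting, its strand setting, the gene filter and the scaling method are not stated there or in the labels. Per the series design, precipitation was done 2 times per animal and pooled, with 2 technical replicates, which are 1 column here. The values are whole multiples of 1 step per library (0.288 to 3.11), so dividing by it recovers read counts, which were whole within 0.1 read for 99.95% of values above 1 in control 1 and 100% in the others. Values under 1 are listed as 1, which can hide 3 reads in control 1 and 1 read in MCAO 1 and MCAO 3. A count of 0 allows 3 reads, or 0.863 to 9.33 scaled reads.

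The test was limma 3.58.1 in R 4.3.3 (intensity trend, two-sided) on log2(value + 1) over 12549 genes with a mean of at least 10, with Benjamini-Hochberg adjustment and calls at an adjusted p under 0.05. edgeR 4.0.16 and DESeq2 1.42.0 on recovered reads were alternatives. Scripts were tested on simulated data. Replicate numbers follow record order and only name animals; the labels give no batch. Gene positions and promoters are from RefSeq (GRCm38.p6). Named were called members, extremes and highest values of each family, members with p under 0.01, the pairs and the cell type lists, 53 in all; others were named after their values were seen. Members and lists were chosen with earlier results of these data known. One gene among those counted is not reported here by name.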

Additional observations from a re-analysis of the deposited data

How the results depend on the processing

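Pde7b was called lower under all 18 alternatives, Rgs10 higher under 16 of the 17 in which it was tested, Gng7 lower under 14 of 18 and Adcy5 lower under 13 of 18. The number of members called higher was 0 with a minimum mean of 50, where Rgs10 was not tested, and 2 with library weights or edgeR; it was 0 to 1 when 1 library was left out. The number called lower was 1 without the intensity trend, 8 with library weights, 5 with DESeq2, and 1 to 4 with 1 library left out. Over all genes, 157 were called without the intensity trend, 1002 with library weights and 148 to 306 with 1 library left out, against 387. No paired analysis was possible because the labels give the groups no shared replicate numbers.

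Leaving out 1 library moved the alpha subunit median between -0.24 and -0.018 and the cyclase median between -0.27 and -0.15. Leaving out the shallowest library of each group, control 2 and MCAO 2, was chosen after seeing the data. It moved the medians to -0.18 for alpha, -0.058 for beta and 0.33 for gamma subunits, -0.31 for cyclases and -0.062 for phosphodiesterases. The gamma median was -0.0197 with a minimum mean of 50, where Gng11 and Gng13 were not tested, 0.37 with library weights and 0.26 with the span trend removed. The cyclase median was -0.38 with a minimum mean of 50 and -0.14 with the span trend removed, where the phosphodiesterase median was -0.056. The cause of these shifts was not tested beyond the fewer genes or libraries in each fit.

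Some members changed direction, and Pde5a (-0.37), Pde6d (0.32) and Rgs6 (-0.29) were among them. With library weights Adcy2 was at -0.17, Adcy7 at -0.13, Gna12 at -0.024, Pde4b at 0.055 and Pde5a at 0.14. Without the shallowest libraries Adcy2 was at -0.27, Adcy7 at -0.10, Adcy8 at -0.15, Gna12 at -0.15, Gnai2 at -0.035, Pde4b at 0.064, Pde5a at 0.46, Pde6d at -0.083, Pde8a at -0.021 and Rgs5 at -0.039. With quantile normalisation Adcy7 was at -0.082, Gna11 at 0.0105, Gng12 at 0.018, Pde3a at -0.089 and Rgs5 at -0.0024. With edgeR and DESeq2 Adcy7 was at -0.062 and -0.057, Pde5a at 0.41 and 0.29, Gnb1l at -0.13 and -0.056, and Rgs20 at 0.045 and 0.024. With edgeR Pde9a was at 0.0047 and Rgs3 at 0.0024. With the span trend removed Gnb2 was at -0.0145, Gng12 at 0.15, Pde4b at 0.25, Pde4dip at 0.071, Pde9a at 0.044, Prkar1b at 0.083, Rgs2 at -0.035, Rgs3 at 0.16, Rgs6 at 0.012, Rgs7 at 0.19 and Rgs20 at 0.13. With 1 library left out the ranges were -0.17 to 0.12 for Adcy2, -0.062 to 0.13 for Adcy7, -0.17 to 0.072 for Gna11, -0.031 to 0.29 for Gna12, -0.28 to 0.0021 for Gna13, -0.25 to 0.15 for Gng12 and -0.12 to 0.0044 for Pde4b. They were -0.26 to 0.052 for Pde4dip, -1.04 to 0.58 for Pde5a, -0.0004 to 0.19 for Pde7a, -0.078 to 0.36 for Pde8a, -0.15 to 0.038 for Rgs4 and -0.13 to 0.19 for Rgs5. The log2 ratio of Prkar2a to Prkar2b ranged from -0.018 to 0.20. The cause of these changes was not tested. Few reads limit the low genes. Rgs10 rests on 8 reads in control 2, 12 in control 3 and 21 in MCAO 2, and Pde7b on 16 in MCAO 2. Nothing in the labels says that the 3 mice of a group came from separate litters or days, while the tests take the libraries as independent. The limma p-values rest on the spread between these libraries, moderated by that of other genes.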
